A study of Cavia porcellus with 72 samples.

Results

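The 10 genes described here mark neurons of the hippocampus or the steps by which new ones form: PROX1, CALB1, C1QL2, DSP, DCX, SOX11, NEUROD1, NEUROD2, WFS1 and EOMES. They were chosen by symbol from the gene names of the count tables, which list 11927 genes over 3 generations. All 10 have reads counted in F1 and F3, and 9 have them in F2, where DCX was not analysed. EOMES was left out of the tests in F2 because it has too few reads there, so that 10 genes were tested in F1, 8 in F2 and 10 in F3. Comparisons across the generations cover 9 of the 10, and DCX was compared between F1 and F3 in a separate fit.

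The animals were female Dunkin-Hartley guinea pigs, an outbred strain, and their hippocampi were collected on postnatal day 40 without prior stress. Pregnant F0 animals had received either the synthetic glucocorticoid betamethasone (sGC) in repeated courses or saline vehicle (control). F1 animals were exposed before birth. F2 and F3 animals were bred from F1 and F2 males of each line with outside females, and their own pregnancies were not treated, so that F2 and F3 controls descend from vehicle pregnancies. RNA-seq libraries came from right hippocampus, with 6 control and 5 sGC animals in F1, 6 and 6 in F2, and 6 and 7 in F3, each female from a different mother. Whole hippocampal tissue was sequenced, so fewer cells of a type and less RNA per cell cannot be told apart.

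The dentate gyrus of the hippocampus goes on making neurons after birth. Its progenitors give rise to intermediate progenitors, these to neuroblasts, and these to granule cells, and a chain of transcription factors and cytoskeletal genes is switched on and off along that path. Pyramidal neurons of the CA fields form earlier and carry their own marker genes, which makes the relative levels of such markers a common readout of the cell makeup of hippocampal tissue.

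Libraries held between 13507449 and 19767033 reads counted on genes. Levels are given as CPM, reads per 1e+06 counted reads after TMM scaling within a generation, and tests used edgeR's quasi-likelihood model with p-values adjusted by Benjamini-Hochberg, the threshold being 0.05. PROX1 had between 1336 and 2483 reads in a library, CALB1 between 1018 and 1668, NEUROD2 between 2020 and 3453, and DCX between 329 and 666. DSP had only 15 to 73 reads and EOMES 2 to 21, so that the levels of these genes are known with wide error. Of the sGC libraries, 5 (F1 replicates 4 and 5, F2 replicate 6, F3 replicates 5 and 6) carry library numbers 32 to 36, outside the numbers of the rest of their generation, and no control library does. What these numbers stand for is not given in the sources used here. Results are given without those libraries where such a fit was run and changed them.

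Markers of hippocampal neurons were measured in every library. The 14 granule cell markers measured in all libraries, 4 of which are among the 10 genes, summed to between 1039 and 1292 CPM, and the 7 CA1 markers, with WFS1 among them, to between 723 and 1021 CPM. Other cell types were present too. The 9 astrocyte markers summed to 8679 to 16423 CPM, and the 7 markers of meningeal fibroblasts to 68.9 to 282 CPM.

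DCX was the single gene of the 10 that differed between sGC and control animals in F1. DCX encodes doublecortin, a microtubule-binding protein of migrating neuroblasts and immature neurons. The 6 control libraries lay between 25.2 and 27.1 CPM with a median of 26.03. The 5 sGC libraries had 33.2, 31.3, 28.4, 27.9 and 32.05 CPM in replicates 1 to 5. Every sGC library was thus above every control library. How many of all genes separate in this way was not counted. The means were 25.96 ± 0.680 CPM (SD, n = 6) and 30.6 ± 2.33 CPM (SD, n = 5), and the log2 fold change was 0.24 (SE 0.05, adjusted p = 0.0393, edgeR quasi-likelihood test), which is 17.7% higher. Of all genes tested in F1, 2.08% passed this threshold in either direction, namely 1.63% higher and 0.457% lower in sGC animals, beside 1 of 10 here. An unadjusted p under 0.05 was found for 19.6% of all genes and for 2 of the 10, DCX and PROX1.

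The F1 control libraries were closer to each other in DCX than read sampling alone would give on average. Their coefficient of variation was 2.62%, where the number of reads implies a counting error of 4.71%. The DCX call rested on few libraries. It was lost in 9 of the 11 fits that left out 1 library, with adjusted p between 0.0183 and 0.0887, and it held only without sGC replicate 3 or 4. Without sGC replicates 4 and 5, the libraries numbered 35 and 32, the difference was 0.25 on the log2 scale with an adjusted p of 0.0536. In all of these fits DCX was higher in sGC animals, by 0.20 to 0.27 on the log2 scale.

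In F3, DCX did not pass the threshold. The 6 control libraries ran from 22.2 to 31.02 CPM with a median of 25.7, and the 7 sGC libraries from 22.1 to 35.5 CPM with a median of 27.6. The groups overlapped, with 2 sGC libraries above every control, 1 below every control and 6 of 7 above the control mean. The log2 fold change was 0.13 (95% interval -0.07 to 0.33, adjusted p = 0.456). A fit of the 24 libraries of F1 and F3 gave no difference between the sGC effects of these generations past the threshold (log2 difference -0.11, adjusted p = 0.778), in a comparison in which 0% of all genes passed. The mean of both effects in that fit was 0.19 on the log2 scale (SE 0.06, adjusted p = 0.0405). Of all genes, 10.8% passed there. The adjusted p of DCX stayed under 0.05 in 9 of 24 fits with 1 library left out (0.0118 to 0.0707). The fit was added after the data were seen and holds the same F1 libraries that gave the F1 call. Its p-value for the mean is therefore not an independent test of DCX. PROX1 had a mean effect of 0.11 in the same fit (adjusted p = 0.137). Control libraries of F1 and F3 differed in DCX by -0.0095 on the log2 scale (adjusted p = 0.995).

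**Figure D1:**
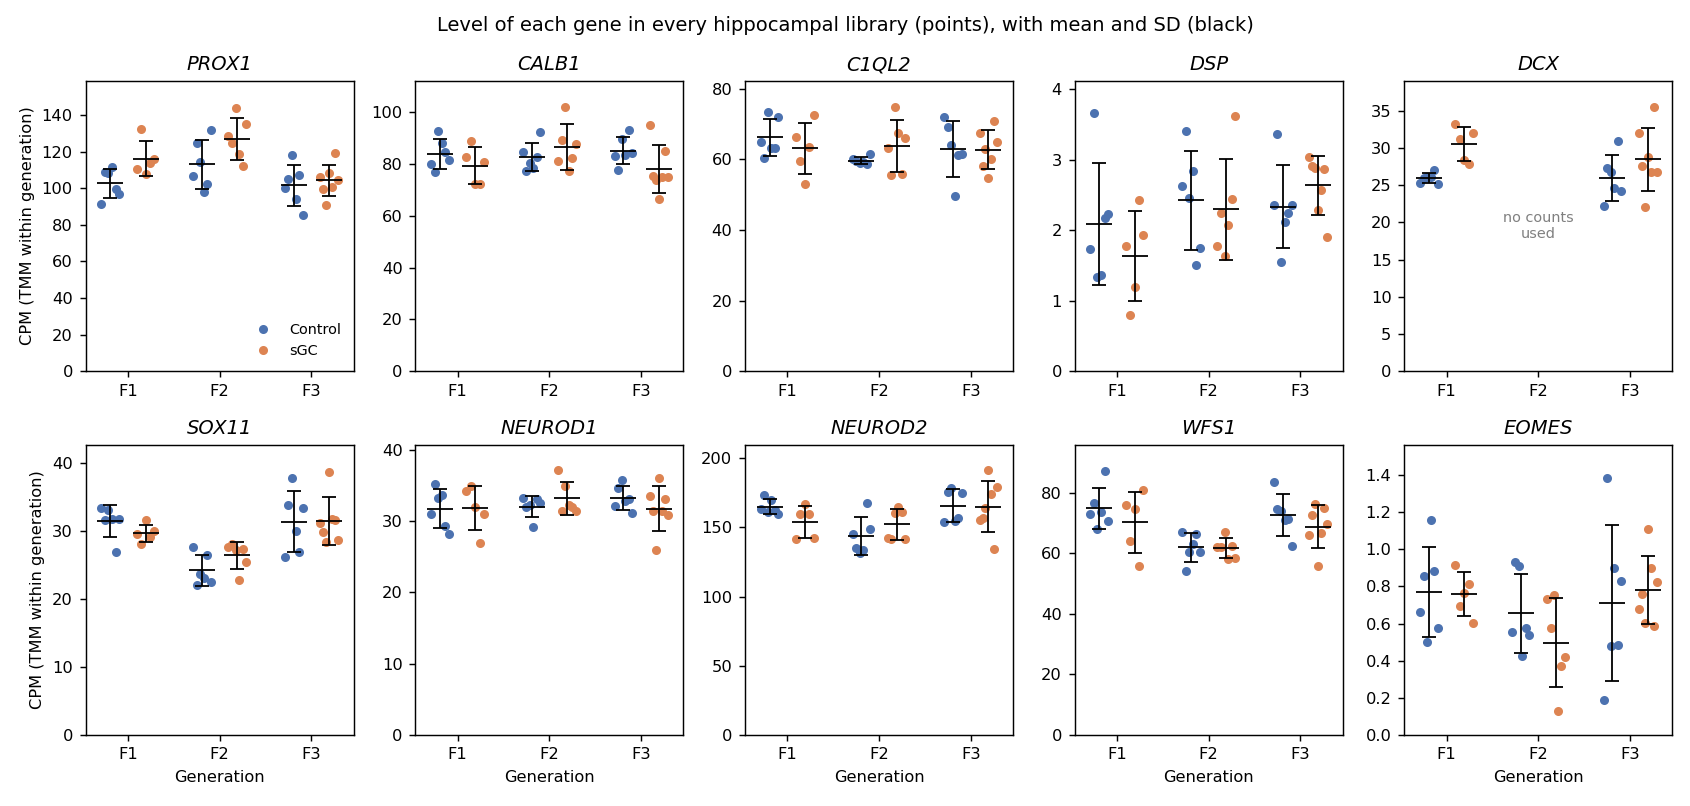
Level of each of the 10 genes in every library, in CPM on a linear axis from 0, by generation, with control libraries in blue and sGC libraries in orange; black lines give the mean and SD. The 5 F1 sGC libraries of DCX lie at 27.9 to 33.2 CPM, above the control libraries at 25.2 to 27.1 CPM. The groups overlap for DCX in F3 and in the other panels. The share of all genes with separated groups was not counted.

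PROX1, a homeobox transcription factor that sets and keeps granule cell identity, had positive log2 fold changes in F1 and F2 that did not pass the adjusted threshold. In F1 the control libraries ran from 91.3 to 111.6 CPM with a median of 103.8, and the sGC libraries had 110.6, 132.5, 107.6, 114.0 and 116.0 CPM. Of these 5 sGC libraries, 3 were above every control library and all 5 were above the control mean. The log2 fold change was 0.18 (SE 0.06, 95% interval 0.04 to 0.31), with an unadjusted p of 0.0132 and an adjusted p of 0.140.

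In F2 the PROX1 level was 97.7 to 132.1 CPM in control libraries (median 110.6) and 111.9 to 143.96 CPM in sGC libraries (median 126.7). Here 5 of 6 sGC libraries were above the control mean and 2 were above every control. This gave a log2 fold change of 0.17 (95% interval 0.02 to 0.32, unadjusted p = 0.0318, adjusted p = 0.711). In F2, 0% of all genes passed the adjusted threshold and 6.64% had an unadjusted p under 0.05, and 1 of the 8 genes tested, PROX1, was among the latter. The likelihood ratio test called 6 genes and DESeq2 called 10 genes in F2, and none of the 8 was called by either.

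In F3 the PROX1 groups overlapped, at 85.3 to 118.0 CPM in control (median 102.7) and 91.1 to 119.2 CPM in sGC libraries (median 104.3). The groups differed by 0.04 on the log2 scale (95% interval -0.10 to 0.18, adjusted p = 0.807). Averaged over the 3 generations, PROX1 had a log2 difference of 0.13 (SE 0.04, adjusted p = 0.0516), just outside the threshold that 8.53% of all genes passed, 5.07% higher and 3.46% lower. The likelihood ratio test and DESeq2 put it inside, at adjusted p = 0.0371 and 0.0382, and the fit without the libraries numbered 32 to 36 put it at 0.260. Leaving out 1 library gave 0.0287 to 0.0901, and 10 of these 36 fits were under 0.05. None of the other 8 genes in that fit passed, with log2 values from -0.10 to 0.02.

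The remaining granule cell markers showed no difference past the threshold in any generation. CALB1 encodes calbindin, a calcium-buffering protein of mature granule cells and of some CA1 neurons and interneurons. In F1 its 6 control libraries ran from 77.0 to 92.6 CPM (median 82.9) and the sGC libraries had 82.6, 88.7, 72.4, 72.1 and 80.9 CPM, a log2 fold change of -0.08 (adjusted p = 0.495). In F2 control libraries lay at 77.3 to 92.4 CPM and sGC libraries at 77.2 to 101.9 CPM, a log2 fold change of 0.07 (adjusted p = 0.835).

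CALB1 in F3 was the gene with the smallest adjusted p of the 10 in that generation. Control libraries ran from 77.7 to 92.9 CPM (median 83.9) and sGC libraries from 66.4 to 95.1 CPM (median 75.05). Of the 7 sGC libraries, 5 were below every control and 1, replicate 1, was above every control. The log2 fold change was -0.13 (95% interval -0.27 to 0.01, unadjusted p = 0.0723, adjusted p = 0.286). Without sGC replicate 1 the log2 fold change was -0.18 and the adjusted p 0.0804. In F3, 5.04% of all genes passed the threshold, 2.17% higher and 2.87% lower in sGC animals, beside 0 of 10 here, and none of the 10 had an unadjusted p under 0.05, beside 21.1% of all genes. The likelihood ratio test and DESeq2 also called none of the 10 in F3.

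C1QL2, a secreted protein of the C1q family made by mossy fibres, where it acts in recruiting kainate receptors to synapses, had unlike spreads in the groups of F2. The 6 F2 control libraries lay within 58.7 to 61.4 CPM, a coefficient of variation of 1.64%, below the 3.30% that counting error alone implies. The 6 sGC libraries had a coefficient of variation of 11.5% and ran from 55.6 to 74.8 CPM, with 4 above and 2 below every control library. For the means it was a log2 fold change of 0.10 (adjusted p = 0.773), and the difference in spread was not tested. In F1 and F3 both groups had coefficients of variation of 7.94% to 12.4%, and the log2 fold changes were -0.07 (adjusted p = 0.629) and -0.0022 (adjusted p = 0.990).

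DSP encodes desmoplakin, a protein of desmosomes that in the brain is used as a dentate granule cell marker. Its level was low, at 1.33 to 3.67 CPM in F1 control libraries and 1.77, 0.801, 1.20, 2.44 and 1.94 CPM in the F1 sGC libraries. The F1 log2 fold change was -0.40 with a 95% interval of -1.06 to 0.25 (adjusted p = 0.485). The intervals were -0.55 to 0.36 in F2 and -0.15 to 0.52 in F3. Libraries of a group differed in DSP with coefficients of variation of 15.8% to 41.5%, above the counting error of 15.2% to 19.5% in all 6 groups.

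SOX11 and NEUROD1, transcription factors of immature neurons, did not pass the threshold in any generation. SOX11 had 26.9 to 33.3 CPM in F1 control libraries (median 31.7) and 29.6, 28.02, 31.5, 29.1 and 29.98 CPM in sGC libraries, a log2 fold change of -0.08 (adjusted p = 0.452). NEUROD1, which drives granule neuron differentiation and survival, had 28.1 to 35.2 CPM (median 32.2) in control and 34.2, 34.96, 32.1, 27.001 and 31.05 CPM in sGC libraries. Its log2 fold change was 0.0053 (95% interval -0.15 to 0.16, adjusted p = 0.977). The F1 groups of both genes overlapped, where those of DCX in F1 did not. The share of all genes with separated groups was not counted.

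In F2 SOX11 had 21.95 to 27.6 CPM in control and 22.8 to 28.1 CPM in sGC libraries, with 5 of 6 sGC libraries above the control mean and a log2 fold change of 0.13 (unadjusted p = 0.0625, adjusted p = 0.749). In F3 its log2 fold change was 0.0047 (adjusted p = 0.983). NEUROD1 had log2 fold changes of 0.05 in F2 (adjusted p = 0.841) and -0.07 in F3 (adjusted p = 0.570).

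EOMES (TBR2), the transcription factor of intermediate progenitors, was near the lower limit of what these libraries can measure. In F1 it had 9 to 17 reads in control and 9 to 15 in sGC libraries, with means of 0.772 ± 0.242 CPM (SD, n = 6) and 0.758 ± 0.120 CPM (SD, n = 5). Its log2 fold change was -0.02 with a 95% interval of -0.52 to 0.48. In F2 it had 7 to 16 reads in control and 2 to 12 in sGC libraries and was not tested. In F3 the log2 fold change was 0.13 with a 95% interval of -0.53 to 0.79, and 1 control library had 3 reads and another 21.

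NEUROD2, a transcription factor of maturing excitatory neurons in all hippocampal fields, had 159.6 to 173.6 CPM in F1 control libraries (median 162.8). The F1 sGC libraries had 141.4, 160.0, 167.0, 159.7 and 142.4 CPM, so that 2 were below every control. Its fitted log2 fold change was -0.10 (95% interval -0.20 to 0.01, unadjusted p = 0.0635, adjusted p = 0.281). It was 0.08 in F2 (adjusted p = 0.796) and -0.0069 in F3 (adjusted p = 0.969), where sGC libraries spread from 134.3 to 191.3 CPM around controls of 153.7 to 178.7 CPM.

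WFS1 encodes wolframin, an endoplasmic reticulum membrane protein, and marks CA1 pyramidal neurons. In F1 control libraries lay at 68.0 to 87.1 CPM (median 73.2) and sGC libraries at 75.9, 64.1, 74.4, 55.7 and 80.7 CPM. The groups overlapped, and the log2 fold change was -0.09 (adjusted p = 0.584). It was -0.0050 in F2 (adjusted p = 0.989) and -0.08 in F3 (adjusted p = 0.553).

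**Figure D2:**
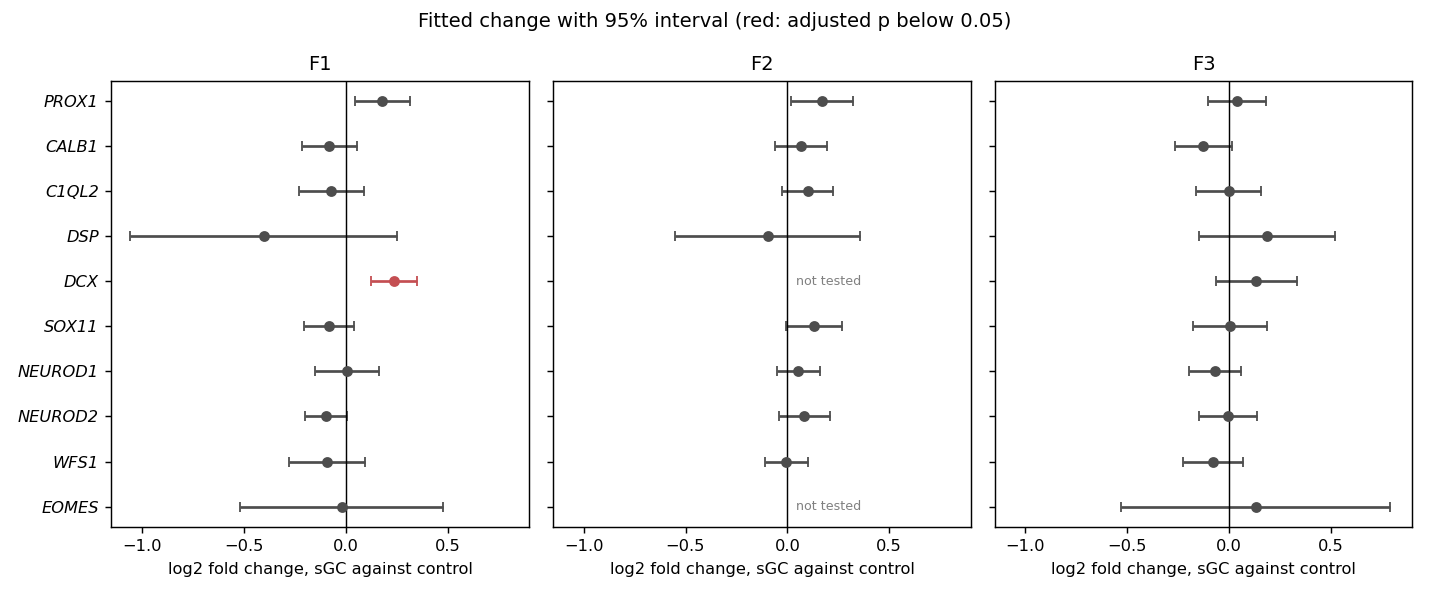
Fitted log2 fold change of sGC against control for each gene in F1, F2 and F3 (points) with its 95% interval from the model (bars). Of the 28 points, DCX in F1 (0.24, red) passed the adjusted threshold, and the bars of DSP and EOMES, the genes with the fewest reads, are the widest.

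Over the 28 tests within generations, 1 passed the adjusted threshold and 3 had an unadjusted p under 0.05, namely DCX in F1 and PROX1 in F1 and F2. The median log2 fold change of the genes tested was -0.08 in F1, where 3 of 10 were positive, 0.08 in F2, where 6 of 8 were positive, and 0.0012 in F3, where 5 of 10 were positive. The medians over all genes tested were -0.0055, -0.00041 and 0.0048. The sGC effects of the 9 genes present in all generations were also compared between generations as interactions. None passed between F2 and F1 (0.29% of all genes, 0.0702% higher and 0.219% lower), where 16.8% of all genes and 0 of the 9 had an unadjusted p under 0.05, between F3 and F1 (0%) or between F3 and F2 (0%). With 0% of all genes passing in the last comparison, 9.08% had an unadjusted p under 0.05, and 1 of the 9, CALB1, was among them (log2 difference -0.19, unadjusted p = 0.0485, adjusted p = 0.549). Between F3 and F1 13.1% of all genes and 0 of the 9 did. DESeq2 and the likelihood ratio test also called none of the 9 in any of these 3 comparisons, with 62 and 58 genes called between F3 and F1.

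Several of the libraries at the edges of these ranges were the same ones. F1 sGC replicate 4 had the lowest WFS1 (55.7 CPM), CALB1 (72.1 CPM) and NEUROD1 (27.001 CPM) of the F1 sGC libraries and the lowest DCX among them (27.9 CPM). Its astrocyte markers summed to 16423 CPM, the most of the 36 libraries, against 8679 to 11381 CPM in F1 controls. F3 sGC replicate 6 had the highest DCX (35.5 CPM) and PROX1 (119.2 CPM) and the lowest NEUROD2 (134.3 CPM) of the F3 sGC libraries, and the largest astrocyte sum of that group, 12408 CPM. In F1 the 9 astrocyte markers all had positive log2 fold changes, with a median of 0.24 and 1 past the threshold. The 7 meningeal fibroblast markers tested all had negative ones, with a median of -0.86 and 2 past it, DCN (log2 fold change -0.995, adjusted p = 0.0494) and LUM (-0.50, adjusted p = 0.0258), and without the libraries numbered 32 to 36 DCN was above the threshold (adjusted p = 0.0577). Of all genes tested in F1, 1.63% passed as higher and 0.457% as lower. Summed meningeal markers were 100 to 282 CPM in F1 control and 68.9 to 140 CPM in F1 sGC libraries. Their part in the F1 difference of DCX was not tested.

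The related lists put the 10 genes beside markers of hippocampal neuron types, neuroblasts, progenitors and dividing cells, and beside forebrain transcription factors. Leaving out the 10 genes themselves, no gene of the granule cell list (10 tested), the CA1 list (6), the CA2 list (5), the CA3 list (6), the neuroblast list (7), the progenitor list (6), the proliferation list (8) or the list of forebrain transcription factors (9) passed in F1 or in F2. At an unadjusted p under 0.05 it was 3 granule cell, 2 CA1, 1 CA3, 2 neuroblast and 2 proliferation genes in F1, and 1 granule cell and 1 CA3 gene in F2, beside 19.6% of all genes in F1 and 6.64% in F2. The median log2 fold changes in F1 were 0.06 for granule cells, -0.12 for CA1, -0.09 for neuroblasts, 0.06 for progenitors and -0.11 for proliferation genes. In the neuroblast list 5 of the 7 genes other than DCX, SOX11 and NEUROD1 had negative log2 fold changes in F1.

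In F3 single genes of these lists passed, in a comparison in which 5.04% of all genes did, 2.17% higher and 2.87% lower. ELAVL4 (HuD), an RNA-binding protein of differentiating neurons, was at 111.0 ± 4.89 CPM (SD) in 6 control and 98.8 ± 5.00 CPM in 7 sGC libraries and fell by 0.17 on the log2 scale (adjusted p = 0.0204). HOPX, a homeodomain protein of radial glia-like progenitors that astrocytes also express, rose from 50.8 ± 6.76 to 61.8 ± 5.84 CPM (log2 fold change 0.28, adjusted p = 0.0493). MCM3, a subunit of the replicative helicase, rose from 7.60 ± 1.14 to 10.3 ± 1.43 CPM (log2 fold change 0.44, adjusted p = 0.0253).

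LEF1, a transcription factor of the Wnt pathway, rose in F3 from 15.2 ± 0.713 to 17.9 ± 0.929 CPM (log2 fold change 0.23, adjusted p = 0.0153). Every sGC library, at 16.5 to 19.2 CPM, was above every control library, at 14.4 to 16.2 CPM. The share of all genes that separate so in F3 was not counted. CACNG5, an AMPA receptor auxiliary subunit of CA2 neurons, fell by 0.17 on the log2 scale (adjusted p = 0.0463). No gene of the granule cell, CA1 or CA3 lists passed in F3, where 1, 1 and 3 of them had an unadjusted p under 0.05, beside 21.1% of all genes. Without the libraries numbered 32 to 36 all 5 of these genes had adjusted p above 0.05, from 0.0548 for ELAVL4 to 0.133 for CACNG5. With 1 library left out at a time, LEF1 passed in 13 of 13 fits, ELAVL4 in 12, MCM3 in 10, CACNG5 in 3 and HOPX in 2. In the fit of all F3 libraries 7 of 8 proliferation genes and 5 of 6 progenitor genes had positive log2 fold changes, with 1 of each list past the threshold. Over all genes tested in F3 the median log2 fold change was 0.0048, and 2.17% passed as higher. The share of all genes with positive values was not counted.

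In the same generation the interneuron genes GAD1 (log2 fold change -0.24, adjusted p = 0.0183) and GAD2 (-0.20, adjusted p = 0.0116), which make GABA, fell in sGC animals, and all 7 interneuron markers tested had negative log2 fold changes. All 9 astrocyte markers had positive ones, 4 of them past the threshold: SLC1A2 (0.24, adjusted p = 0.0201), GLUL (0.15, adjusted p = 0.0456), S100B (0.23, adjusted p = 0.0156) and Slc4a4 (0.24, adjusted p = 0.0178). Of all genes tested in F3, 2.17% passed as higher and 2.87% as lower. Slc4a4 also rose in F1 (0.48, adjusted p = 0.0451), a call that held in 2 of 11 fits with 1 library left out, and that of GLUL in F3 held in 3 of 13. Without the libraries numbered 32 to 36, GLUL in F3 and Slc4a4 in F1 were above the threshold, at adjusted p = 0.0897 and 0.0956. No gene of the oligodendrocyte, microglia, endothelium, choroid plexus, striatum, thalamus or general excitatory neuron lists passed in any generation, with at most 3 genes of a list at an unadjusted p under 0.05. These lists are short, with 2 to 6 genes measured in all libraries. Over all genes an unadjusted p under 0.05 was found for 19.6% in F1, 6.64% in F2 and 21.1% in F3. TTR, the main choroid plexus transcript, was analysed in F2 only and ranged there from 0.943 to 658 CPM between libraries. Summed astrocyte markers were 9575 to 10540 CPM in F3 control and 10758 to 12408 CPM in F3 sGC libraries, and their part in the F3 differences of HOPX and the other genes named was not tested.

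Control animals alone were compared between generations, with TMM scaling over all 36 libraries. SOX11, WFS1, NEUROD2 and C1QL2 were lower in F2 than in F1 controls. SOX11 lay at 27.4 to 34.0 CPM in F1 (median 32.5) and 21.7 to 27.3 CPM in F2 (median 23.2), with a log2 difference of -0.42 (SE 0.08, adjusted p = 2.57e-05). WFS1 lay at 69.9 to 88.8 CPM in F1 and 53.5 to 66.5 CPM in F2, a log2 difference of -0.32 (adjusted p = 0.000638). For SOX11, WFS1 and C1QL2 each F2 control was below each F1 control, and for NEUROD2 5 of 6 were. The share of all genes with such separated groups was not counted. NEUROD2 differed by -0.25 (adjusted p = 0.00201) and C1QL2 by -0.20 (adjusted p = 0.0351), and the C1QL2 call was lost without F1 control replicate 3 or 6 or without F2 control replicate 2, 3, 4 or 5 (adjusted p up to 0.0956). Of all genes, 44.9% passed in this comparison, 22.5% higher and 22.4% lower in F2, and 51.1% had an unadjusted p under 0.05. In either direction, 4 of 9 is close to the share over all genes. All 4 were lower in F2 and 0 were higher, a split that was not tested.

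In SOX11, WFS1 and NEUROD2 the F3 controls were above the F2 controls again. SOX11 had 26.5 to 38.4 CPM in F3 controls, which is 0.41 above F2 on the log2 scale (adjusted p = 5.38e-05), WFS1 was 0.27 above (adjusted p = 0.00484) and NEUROD2 0.24 above (adjusted p = 0.00316). C1QL2 differed by 0.11 (adjusted p = 0.285). In this comparison 38% of all genes passed, 19% in each direction, and 45.7% had an unadjusted p under 0.05, beside 3 of 9 here in both counts. All 3 were higher in F3. Between F3 and F1 controls 0 of the 9 passed, with log2 differences from -0.13 to 0.12, and 0.0176% of all genes did. At an unadjusted p under 0.05 it was 0 of the 9 and 7.7% of all genes, and DESeq2 and the likelihood ratio test called 8 and 9 of all genes but none of the 9.

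**Figure D3:**
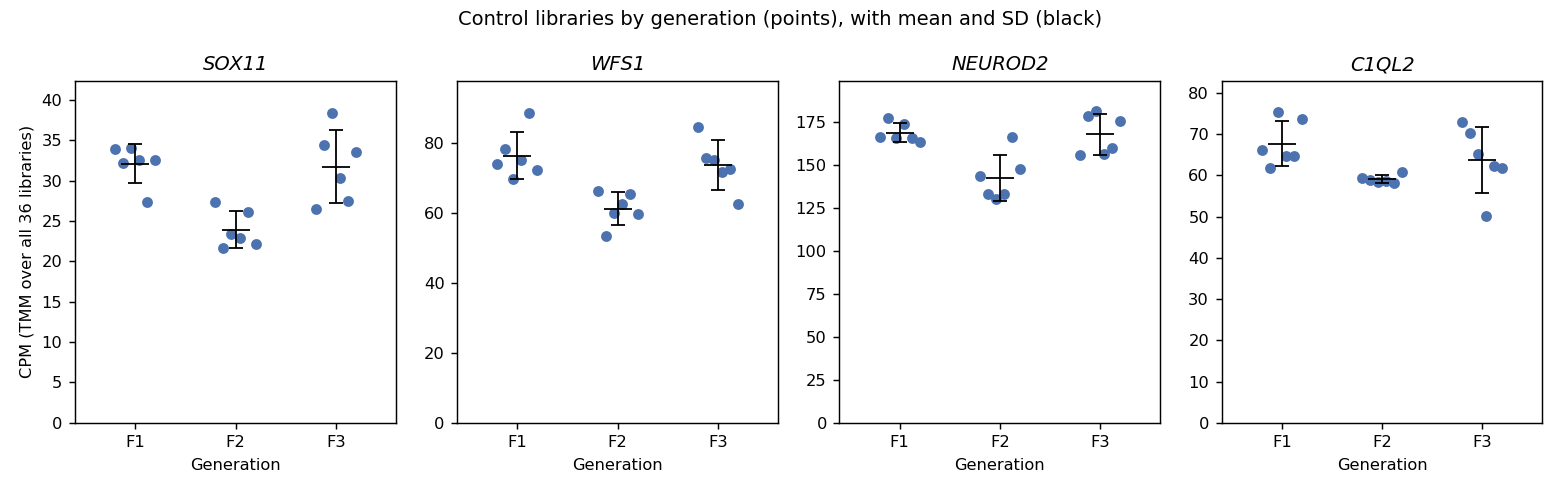
Level of SOX11, WFS1, NEUROD2 and C1QL2 in control libraries of F1, F2 and F3, in CPM after TMM scaling over all 36 libraries, on linear axes from 0; points are libraries and black lines the mean and SD. The F2 points of SOX11, at 21.7 to 27.3 CPM, lie below all F1 points, at 27.4 to 34.0 CPM.

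In sGC libraries the medians of SOX11, WFS1 and NEUROD2 were also lowest in F2, whereas that of C1QL2 was lowest in F3 (65.7 CPM in F1, 64.0 in F2 and 63.6 in F3). SOX11 lay at 28.7 to 32.4 CPM in F1, 22.6 to 27.9 CPM in F2 and 28.7 to 39.2 CPM in F3 sGC libraries, and WFS1 at 57.5 to 82.9, 57.6 to 66.4 and 56.5 to 77.1 CPM. F2 sGC replicate 6, whose library number 33 lies outside the F2 numbers, had 25.2 CPM of SOX11 and 57.6 CPM of WFS1, within the range of the other F2 libraries. Generation and any difference in breeding, collection or sequencing between generations cannot be told apart. PROX1, CALB1, DSP, NEUROD1 and EOMES had log2 differences between control groups of -0.26 to 0.16, and none of them passed in any of the 3 comparisons.

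Levels also varied between libraries of the same group, and the 10 genes were compared in how far they did so together. Each gene's log2 CPM was taken relative to the mean of its group, and the 45 pairs of genes were compared over the 36 libraries, or over 24 for pairs with DCX. PROX1 and NEUROD1 varied together (Pearson r = 0.55, adjusted p = 0.0261, Spearman rho = 0.59, adjusted p = 0.01665, permutation within groups, n = 36 libraries), and r was 0.56 without the 2 libraries farthest from the median of PROX1. This was the single pair of the 45 past the threshold. How often pairs of other genes reach such values in these libraries was not counted. The unadjusted permutation p values were 0.00058 for r and 0.00037 for rho.

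The pairs next to it were of granule cell markers, of neuroblast genes or of both kinds. PROX1 and DCX had r = 0.60 and rho = 0.61 over 24 libraries (adjusted permutation p = 0.0565 and 0.0758), DCX and NEUROD1 r = 0.58 and rho = 0.56 (adjusted permutation p = 0.0565 and 0.0777), and PROX1 and CALB1 r = 0.48 and rho = 0.45 over 36 (adjusted permutation p = 0.0565 and 0.0869). CALB1 and DCX had r = 0.56 and rho = 0.56 over 24 libraries (adjusted permutation p = 0.130 and 0.0869). SOX11, the other neuroblast gene, had r = 0.44 and rho = 0.38 with NEUROD1 over 36 libraries (adjusted permutation p = 0.0772 and 0.155). Its r was 0.16 with DCX and 0.03 with PROX1. Over the 45 pairs r ran from -0.37 to 0.60 with a median of 0.04, and 25 pairs were positive. All genes of a library share its dissection and depth.

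**Figure D4:**
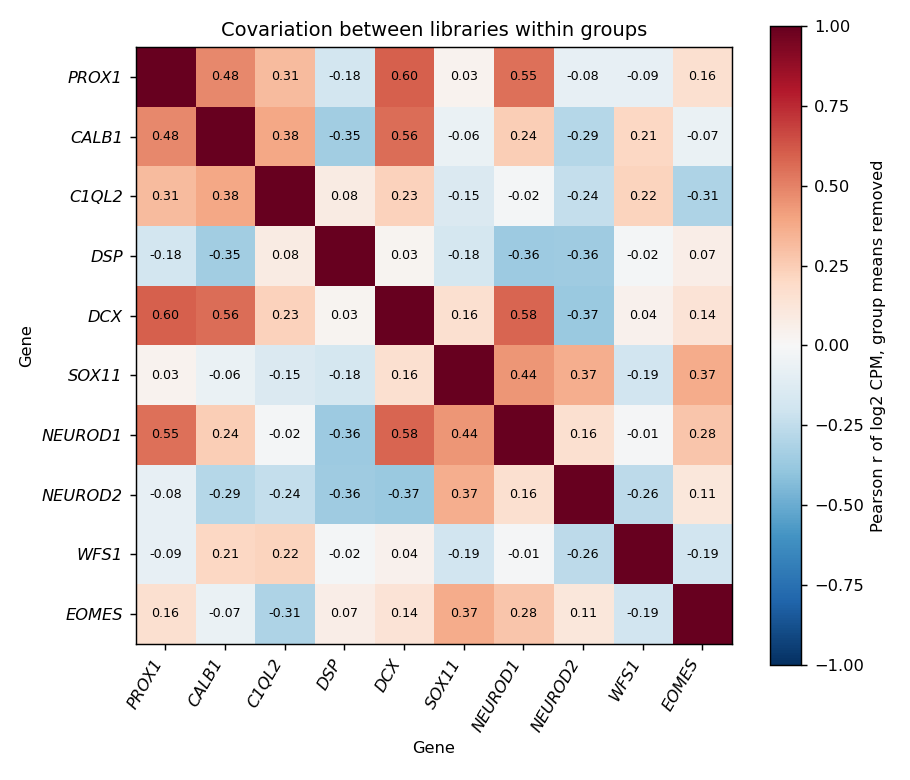
Pearson correlation of each pair of the 10 genes between libraries, after removing the mean of each generation and treatment group, on a colour scale from -1 (blue) to 1 (red). The largest values are among PROX1, CALB1, DCX and NEUROD1, with PROX1 and DCX at 0.60.

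Among the 11153 genes measured in all 3 generations, those most like PROX1 over the 36 libraries, by the same measure, were CADM2 (r = 0.80), SEMA5A (0.78), RFX3 (0.74), ADARB2 (0.71) and PLXNA4 (0.71), of which SEMA5A and RFX3 were on the granule cell list. Genes most like DCX, over 24 libraries, were NSD1 (r = 0.91), STRN (0.89), AGO1 (0.88), ATM (0.88) and ELOVL6 (0.87). Genes like WFS1 included L1CAM (r = 0.78), SLC12A5 (0.76) and SEZ6L2 (0.75), and the median r over all genes was between -0.0057 and 0.0015 in each case. These are descriptions, chosen as the highest of many values. In F1, RFX3 had a log2 fold change of 0.22 (unadjusted p = 0.0189, adjusted p = 0.167) and SEMA5A of 0.09 (adjusted p = 0.428), beside 0.18 for PROX1. The granule cell markers CALB1 (-0.08), C1QL2 (-0.07) and DSP (-0.40) had negative log2 fold changes in F1.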

How the data were processed

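RNA-seq covered 36 hippocampal libraries, grouped by their GEO labels, and 36 methylation samples were not used here. For each generation the authors deposited a table of raw counts, made from reads aligned with TopHat2 per the submitters' processing notes. The counter, genome build, annotation and filter behind the RNA counts are not given in the sources used here, and no transcript lengths were used, so that levels are not compared between genes. The tables also hold the authors' own fold changes, dispersions and p-values, which were not used. Methylation tables were not used.

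Counts were analysed in R 4.3.3 with edgeR 4.0.16 (limma 3.58.1) and DESeq2 1.42.0. Genes were kept by filterByExpr (11377 in F1, 11414 in F2, 11359 in F3), scaled by TMM and tested within each generation by the quasi-likelihood test with Benjamini-Hochberg adjustment over all genes. Differences between generations were contrasts in 1 fit of the 36 libraries (11390 genes). Standard errors were the log2 fold change divided by the square root of F, and 95% intervals used the model's degrees of freedom. Pairs of libraries of a group differed by more than counting error (chi-square per degree of freedom 2.11 to 28.9 over 91 pairs), so that none was counted as a duplicate. Covariation used log2 CPM with a prior count of 1 and 100000 two-sided permutations within groups (Python 3.11.15, numpy 2.4.6, scipy 1.17.1, pandas 2.3.3, matplotlib 3.10.9). The fits were tested on simulated counts.

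Alternatives were the likelihood ratio test, which the study's methods name, DESeq2, RLE size factors, no filter, a replicate block, 1 fit of all libraries, leaving out the libraries numbered 32 to 36 and leaving out each library. The fit of F1 and F3 alone was added after the data were seen. The 10 genes and the marker lists were chosen with earlier results of these data known. The list genes named were those past the threshold, at most 4 per list and generation, and the genes named for likeness were the 5 highest r, of which some for WFS1 are not reported here.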

Additional observations from a re-analysis of the deposited data

Results flagged for a closer look

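Of the 58 groups of libraries examined for the 10 genes, 3 held a library that stood apart from the others by Dixon's criterion, about as many as chance gives at 1 in 20. NEUROD1 in F2 control replicate 4 was the lowest of 6 libraries, at 29.2 CPM against 32.03 to 33.3 CPM. SOX11 in F1 control replicate 5 was the lowest of 6, at 26.9 CPM against 31.5 to 33.3 CPM, and without it the F1 log2 fold change of SOX11 was -0.12. SOX11 in F3 sGC replicate 4 was the highest of 7, at 38.7 CPM against 28.3 to 31.8 CPM. No gene of the 10 had an sGC effect that differed between generations past the threshold.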

How the results depend on the processing

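Of 234 values of single genes of the 10 under other tests, scalings, filters, fits and sets of libraries, 225 kept their direction and their side of the threshold. Most of the 234 belonged to differences that passed no threshold in the main fits and so had no call to lose. The 2 that lost a call were DCX in F1 under the replicate block (log2 fold change 0.23, adjusted p = 0.115) and without the libraries numbered 32 to 36 (0.25, adjusted p = 0.0536), and the 2 that gained one were PROX1 averaged over generations with the likelihood ratio test and DESeq2 (log2 0.13 in both). The number of the 10 genes called in F1 thus went from 1 to 0 under the replicate block, without the libraries numbered 32 to 36 and in the fit of all 36 libraries, which does not hold DCX. With 1 library left out it was 0 to 1. The number called for the mean effect went from 0 to 1 with the likelihood ratio test and DESeq2, and was 0 to 1 with 1 library left out.

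The other 5, and 33 of 684 with 1 library left out, changed sign, all for differences that passed no threshold. They were NEUROD1 in F1 under the replicate block (-0.0290) and, without the libraries numbered 32 to 36, EOMES in F1 (0.0376), WFS1 in F2 (0.0102), SOX11 in F3 (-0.00055) and NEUROD2 in F3 (0.0311). With 1 library left out, log2 fold changes ran from -0.0636 to 0.0401 for C1QL2 in F3, from -0.27 to 0.0179 for DSP in F2, from -0.12 to 0.11 for EOMES in F1, from -0.0608 to 0.41 for EOMES in F3, from -0.0308 to 0.0602 for NEUROD1 in F1, from -0.0456 to 0.0379 for NEUROD2 in F3, from -0.0078 to 0.0847 for PROX1 in F3, from -0.0509 to 0.0658 for SOX11 in F3 and from -0.0409 to 0.0198 for WFS1 in F2. The causes were not tested.

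Same-numbered control and sGC libraries did not deviate together, with correlations of -0.36 to 0.29, so that the replicate number was not taken as a pairing. Under the replicate block 68 of all genes passed in F1, against 237, and 70 higher and 101 lower in F3, against 573 in all. The count over all genes in F1 was 598 with the likelihood ratio test, 658 with DESeq2, 852 in the fit of all 36 libraries, 97 without the libraries numbered 32 to 36 and 56 without F1 sGC replicate 5 to 342 without F1 sGC replicate 4. In F3 it was 937 with DESeq2, 334 in the fit of all 36 libraries, 317 without the libraries numbered 32 to 36, and 288 without F3 sGC replicate 5 to 639 without F3 sGC replicate 6. For the mean effect it was 54 without the libraries numbered 32 to 36, against 971, and 539 without F1 sGC replicate 4 to 1190 without F1 sGC replicate 2. For the F2 against F1 interaction it was 168 with the likelihood ratio test and 202 with DESeq2, against 33. It was 68 without the libraries numbered 32 to 36 and 66 with no filter. With 1 library left out it ran from 0, without F2 control replicate 2, to 219, without F2 sGC replicate 6. For F3 against F1 it was 431 without the libraries numbered 32 to 36 and 454 without F1 sGC replicate 4, against 0. PROX1 and NEUROD1 remained the single pair past the threshold with a prior count of 5, with RLE size factors and without the libraries numbered 32 to 36. Of the 14 calls of listed genes, those of Slc4a4 in F1, HOPX and MCM3 held under the replicate block (adjusted p 0.0375, 0.0408 and 0.0467), and those of Slc4a4, DCN and LUM in F1 held in 2, 2 and 5 of 11 fits with 1 library left out. In the fit of all 36 libraries 8 of the 11 calls in F3 were lost (adjusted p 0.0505 to 0.218). EOMES had 2 to 21 reads in a library, with a counting error of 27.4% to 36.1%.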
